A study of Sus scrofa with 2 samples.

Results

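The miR-99 and miR-100 family was followed in small RNA libraries of pig testis, from sexually immature to sexually mature boars. Its members were every tag whose listed miRNA name, without species prefix, copy number and arm, was miR-99, miR-99a, miR-99b or miR-100. No tag was listed as plain miR-99, so the family held 3 miRNAs. These make 6 of the 1327 features counted by name and arm, listed under 16 of 1933 entries. The family was read as 4293 of 82288 distinct tags in the immature library and 1431 of 28643 in the mature library. The tissue was whole testis and the breed Junmu-1, white pigs of Chinese origin. The immature library was made from animals 30 days old and the mature library from animals 180 days old. At either age the RNA of 3 boars went into 1 pool and 1 library, so there is no replicate check, no spread between animals and no p-value for any difference between the ages. Differences are given as a ratio, mature over immature, with an exact 95% interval that covers the counting error of reads only. Reads carried no molecular identifiers, so amplified copies of the same molecule were counted separately.

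MicroRNAs guide Argonaute proteins to messenger RNAs mainly by their seed, a stretch near the 5′ end, and miRNAs with the same seed can bind the same sites. miR-100 is among the oldest animal miRNAs, and miR-99a and miR-99b are its vertebrate relatives. They are known for binding the messenger RNAs of the growth kinase MTOR and the insulin-like growth factor receptor IGF1R. Their genes are described as lying in short clusters with a let-7 and a miR-125 gene. In the RefSeq pig table (Sscrofa11.1), MIR99A neighbours MIRLET7C inside the uncharacterised gene LOC106508546, MIR99B neighbours MIRLET7E and MIR125A, and MIR100 neighbours MIRLET7A-1 and MIR125B-1. The miRNA genes nearest to MIR99A there are MIRLET7C, MIR155 and MIR9805, with no miR-125 gene among them.

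The mature 22-base sequences below are the exact tags as read in the libraries, written 5′ to 3′ with T for U and with the seed (bases 2 to 8) in capitals. They are shown because the whole comparison turns on how the members are told apart.
miR-99a: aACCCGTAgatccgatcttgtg
miR-100: aACCCGTAgatccgaacttgtg
miR-99b: cACCCGTAgaaccgaccttgcg
The members share the seed ACCCGTA. Counted from 1 at the 5′ end, miR-99a and miR-100 were the same at 21 of 22 bases and differed by T16A, the miR-99a base being written first. miR-99b was the same as miR-99a at 18 of 22 bases, with A1C, T11A, T16C and T21C. In the next set the capitals mark the 4 positions at which any of the members differ.
miR-99a: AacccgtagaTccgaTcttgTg
miR-100: AacccgtagaTccgaActtgTg
miR-99b: CacccgtagaAccgaCcttgCg

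The 30-day list held 7525725 miRNA-matched reads and the 180-day list 852209, and levels are given as RPM, reads per 1000000 of these. The smallest level read as different from 0, taken as 3 reads, was 0.399 RPM at 30 days and 3.52 RPM at 180 days. The tag numbers have gaps, and if they are ranks by read count in the whole library, an assumption that no label states, the lists were at most 59.2% of the 30-day and 7.08% of the 180-day library. The gonadal marker miR-202-5p was abundant at both ages, with 59374 RPM at 30 days and 104917 RPM at 180 days. The summed level of 3 markers of meiotic and later germ cells (miR-34b-3p, miR-34c and miR-449a) was 10.4 RPM at 30 days and 32104 RPM at 180 days. The 4 mesenchymal markers (miR-199a-3p, miR-214, miR-143 and miR-145) summed to 106082 and 74687 RPM, but they went opposite ways, with ratios of 0.575 for miR-199a-3p and 0.536 for miR-214 against 2.76 for miR-143 and 3.72 for miR-145. The 2 endothelial markers summed to 381 and 629 RPM. The red blood cell marker miR-451 stood at 1535 and 3774 RPM, the 2 markers of striated muscle at 1314 and 6426 RPM, and the 3 epithelial markers at 61.7 and 81.0 RPM. Every marker had at least 1 read in each library, though miR-200c, with 1 read at 180 days, was under the 3 reads taken as the floor. Markers of several cell types therefore moved with age beside every family ratio that follows, and their part in those ratios was not tested. In whole tissue, fewer cells of a type and less RNA per cell cannot be told apart.

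The family was abundant in both libraries. Its main (5′) arms held 9.92% of the miRNA-matched reads at 30 days and 8.15% at 180 days. The balance within it differed between the ages. miR-99a made up most of the family at both ages, miR-100 took a larger share at 180 days, and miR-99b was rare throughout. For the whole main-arm family the ratio was 0.822 (95% interval 0.815 to 0.828).

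By the names in the lists, miR-99a had 631356 reads (83893 RPM) at 30 days and 46491 reads (54554 RPM) at 180 days. It ranked 4 and 5 among the measured miRNAs, and its ratio was 0.650 (0.644 to 0.656). miR-100 had 109219 reads (14513 RPM) at 30 days and 22132 reads (25970 RPM) at 180 days, ranking 14 and 13. Its ratio was 1.79 (1.76 to 1.82). miR-99b had 6051 reads (804 RPM) at 30 days and 863 reads (1013 RPM) at 180 days, ranking 68 and 69. Its ratio was 1.26 (1.17 to 1.35). A miRNA was called higher or lower at 180 days when it differed 2-fold or more and the interval excluded 1. Under this rule 1 of the 6 arms of the family was higher, the rare miR-100*, and 0 were lower. Among all 439 miRNAs with 20 or more reads, 31.0% were higher and 11.6% lower, and nothing particular to the family is read from 1 and 0 of 6 arms. The median log2 ratio of the 6 arms was −0.09, against 0.26 over the 421 miRNAs read in both libraries. The ratio of miR-99a was above that of 23.0% of these miRNAs, that of miR-99b above 51.1% and that of miR-100 above 64.6%.

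The listed names did not separate miR-99a from miR-100. Each tag was therefore compared with the 3 sequences base by base and given to the member it matched best. Of the reads listed as miR-100, 32.5% (35511 reads) carried the bases of miR-99a at 30 days, and 9.40% (2080 reads) did so at 180 days. In the other direction 10 reads listed as miR-99a carried the bases of miR-100 at 30 days, and 2 at 180 days. The exchange thus ran almost wholly from miR-99a into the miR-100 name, and it was larger in the immature library. A single tag made up 90.3% of the misnamed reads at 30 days and 89.2% at 180 days. That tag is the 22-base miR-99a with a T added at its 3′ end, read 32051 and 1855 times. It is set here beside the other 23-base tags, with position 16 and the added base in capitals.
miR-99a with T, listed as miR-100: aacccgtagatccgaTcttgtgT
miR-99a with A, listed as miR-99a: aacccgtagatccgaTcttgtgA
miR-100 with T, listed as miR-100: aacccgtagatccgaActtgtgT
miR-100 with A, listed as miR-100: aacccgtagatccgaActtgtgA
The entry that took the T-added tags is the miR-100 of a lancelet (bfl-miR-100), which is 23 bases long and ends in T. Against it, miR-99a with T had 22 matching bases, 1 mismatch and 0 unmatched bases. miR-99a with A, in contrast, was listed under the human miR-99a entry with 22 matching bases, 0 mismatches and 1 unmatched base. The lancelet entry held 56281 reads at 30 days, of which 61.9% were miR-99a by their bases, and 7629 reads at 180 days, of which 26.8% were. A sea anemone entry (nve-miR-100) was 93.3% miR-99a at 30 days and 83.8% at 180 days, over 686 and 37 reads. The human and opossum miR-100 entries held no more than 0.0365% miR-99a at either age.

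Regrouped by their own bases, the reads gave miR-100 a wider difference between the ages. miR-100 then had 73453 reads (9760 RPM) at 30 days and 19991 reads (23458 RPM) at 180 days. Its ratio was 2.40 (2.37 to 2.44), past the 2-fold threshold that the listed name had missed. miR-99a had 665809 reads (88471 RPM) at 30 days and 48408 reads (56803 RPM) at 180 days, with a ratio of 0.642 (0.636 to 0.648). miR-99b changed little by the regrouping, with 6040 and 863 reads and a ratio of 1.26 (1.17 to 1.36). Reads that matched several members equally well were 0.177% of the family's main-arm reads at 30 days and 0.322% at 180 days by this measure, and they were left out. With own bases, 2 of the 6 arms were higher, miR-100 and miR-100*, and 0 were lower, beside the same 31.0% and 11.6% of all miRNAs. The ratio of miR-100 was then above that of 74.1% of the 421 miRNAs.

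**Figure D1:**
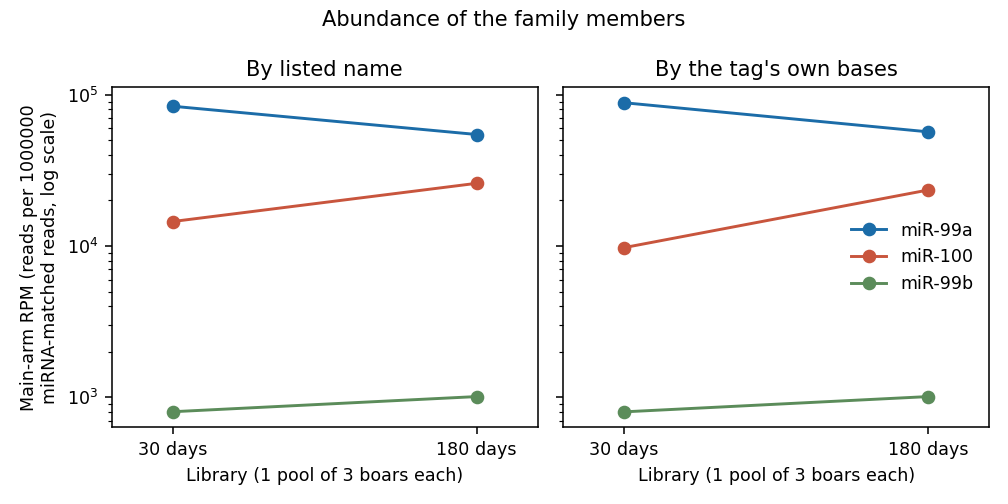
Main-arm RPM (log axis) of miR-99a, miR-100 and miR-99b in the 30-day and 180-day libraries, by listed name on the left and by the tag's own bases on the right, with each point 1 library of 3 pooled boars. On the right, miR-100 runs from 9760 to 23458 RPM and miR-99a from 88471 to 56803 RPM. Under TMM and median-of-ratios scaling miR-100 by own bases stays above 1 but under 2-fold (1.30 and 1.23), and it is below 1 per read of the whole library (0.287).

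How the libraries were scaled moved every ratio by the same factor, so direction had to be read with it. Scaling by the trimmed mean of M values (TMM) shifted all log2 ratios by −0.89, median-of-ratios size factors by −0.96, and the lowest totals of the whole libraries by −3.06. The last of these rests on the tag numbers being ranks, and as a ratio of 2 lower limits it bounds nothing. miR-99a stayed below 1 under each of these, with ratios by own bases of 0.346, 0.329 and 0.0768. miR-100 by own bases was above 1 under TMM (1.30, 1.28 to 1.32) and median-of-ratios scaling (1.23, 1.21 to 1.25) without reaching 2-fold, and below 1 per read of the whole library (0.287). By its listed name miR-100 fell on the other side of 1 under TMM already (0.965). miR-99b was above 1 only when scaled to the miRNA-matched total, and stood at 0.681, 0.647 and 0.151 under the others. The order of the members' ratios, miR-100 above miR-99b above miR-99a, is the same under every such factor.

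**Figure D2:**
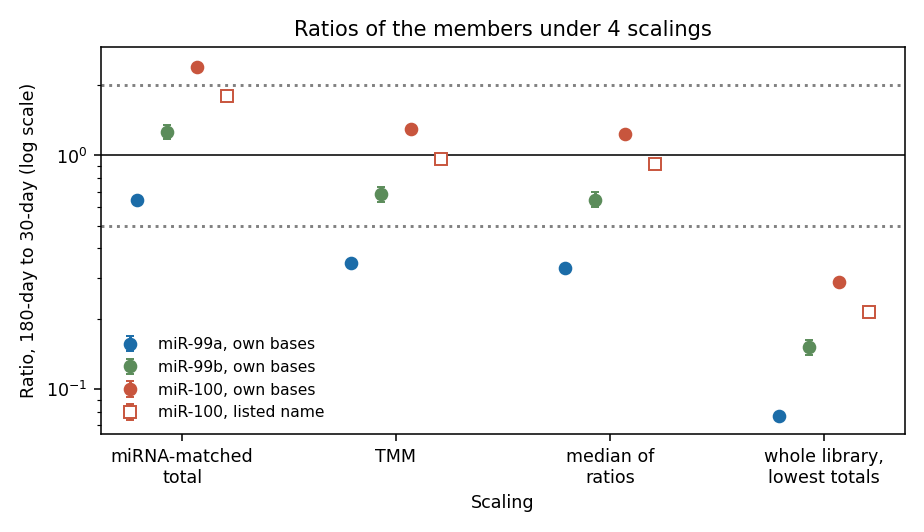
Ratio of the 180-day to the 30-day library (log axis) for each member under 4 scalings, with 95% counting intervals, filled circles for own bases, open squares for the listed name of miR-100, and dotted lines at 2 and 0.5. miR-99a lies below 1 throughout, miR-99b is above 1 at the left scaling only, and miR-100 by own bases passes 2 at the left scaling, lies at 1.30 and 1.23 in the middle and at 0.287 at the right.

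The proportion of the members to each other needs no scaling, since both counts come from the same library. By own bases miR-99a was 89.3% of the family at 30 days (95% interval 89.3% to 89.4%) and 69.9% at 180 days (69.5% to 70.2%). miR-100 was 9.86% (9.79% to 9.92%) at 30 days and 28.9% (28.5% to 29.2%) at 180 days. miR-99b was 0.810% and 1.25%. miR-99a was thus 9.06-fold as abundant as miR-100 in the immature library and 2.42-fold in the mature library. The amount of miR-100 per miR-99a differed 3.74-fold between the ages (3.68 to 3.81), where the listed names gave 2.75-fold (2.70 to 2.80). miR-99b per miR-99a was 1.97-fold higher at 180 days (1.83 to 2.11), and miR-100 per miR-99b 1.90-fold higher (1.77 to 2.05). Adapters were joined with T4 RNA ligase, which is known to take up RNA ends unequally. The 22-base sequences of miR-99a and miR-100 have the same bases at both ends, and that of miR-99b does not, so its level beside theirs is less certain. The reads of miR-99a and miR-100 still differed at the 3′ end, with bases added in 15.2% and 26.5% of them at 30 days. The part of ligation in any of these proportions was not tested.

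The shift from miR-99a to miR-100 was present in each form of the molecule with 20 or more reads of each member in each library. Among reads that were exactly 22 bases, miR-99a had 298516 reads at 30 days and 19319 at 180 days, and miR-100 had 24498 and 5746. That is a 3.62-fold difference in miR-100 per miR-99a (3.51 to 3.74). Among the 21-base forms, miR-99a had 195225 and 15865 reads and miR-100 had 23369 and 7266, a 3.83-fold difference (3.71 to 3.95). The 22-base form with A added gave 3.63-fold, and that with T added, the form the list misnames, gave 3.89-fold (3.63 to 4.18). Reads that began at base 2 gave 4.54-fold (3.41 to 6.06). Over the 12 such forms the difference ran from 2.34-fold, in reads with 2 or more A added, to 5.14-fold, in reads cut to 19 bases. All 12 intervals lay above 1. The forms share their libraries and are not replicates.

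**Figure D3:**
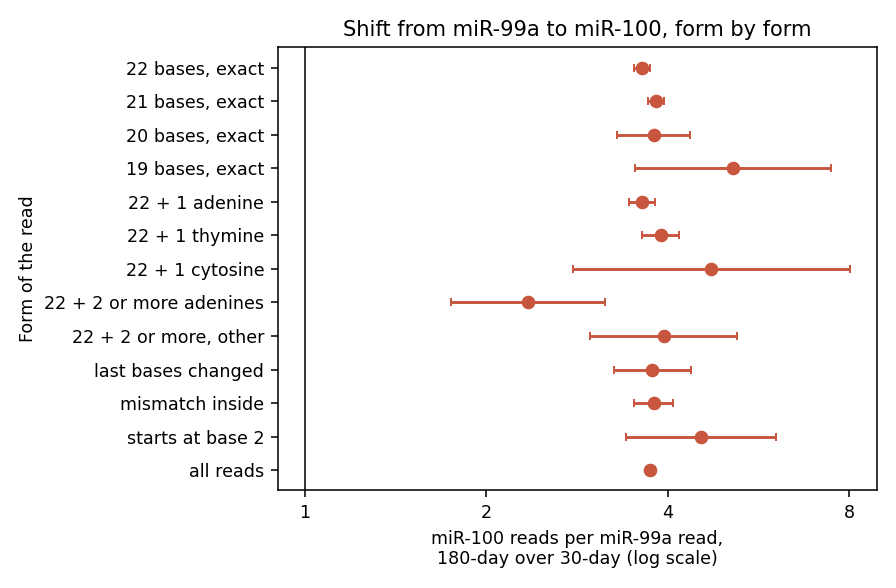
Fold difference in miR-100 per miR-99a, 180-day over 30-day (log axis), for each form of the reads by own bases, with 95% counting intervals and a line at 1. All 12 forms and all reads together (3.74) lie to the right of 1, between 2.34 and 5.14.

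The regrouping of miR-99a and miR-100 rests on position 16, the only base at which they differ, so the base read there restates it. In tags with the leading start it was T in 89.9% of 735521 reads at 30 days and in 70.6% of 68032 reads at 180 days. It was A in 9.91% and 29.1%. For comparison, A was read at 3 other T positions of miR-99a (7, 11 and 18) in 0.0174% to 0.0541% of its reads at 30 days and in 0.0187% to 0.0750% at 180 days. An A-to-G change, the kind that RNA editing leaves in reads, was most frequent at position 15 among the A positions of bases 1 to 15 in each member. It was found there in 0.471% of miR-100 reads at 30 days and 0.359% at 180 days, and in 0.442% and 0.285% of miR-99a reads. An A-to-C change at the same position was more frequent still, in 0.859% and 1.09% of the reads of both members together. Within the seed the A-to-G change was below 0.1% at positions 2 and 8 of both members at both ages.

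The exact 22-base and 21-base reads were the leading forms of every member, although for miR-99b at 180 days they were only 26.8% and 20.6% of its reads. The 21-base end of miR-99a and miR-100 was more frequent, relative to the 22-base end, in the mature library. For miR-99a there were 65.4 reads of the 21-base form per 100 of the 22-base form at 30 days and 82.1 at 180 days. For miR-100 there were 95.4 and 126, so that the 21-base form outnumbered the 22-base form in the mature library only. For miR-99b there were 62.2 and 77.1, with intervals of 57.9 to 66.7 and 63.0 to 94.1 that overlap. These are differences of 1.26-fold, 1.33-fold and 1.24-fold. The same quantity, computed for the leading tag of the 42 other miRNAs with 1000 or more such reads in both libraries, had a median of 0.963-fold, and 17 of the 42 were above 1. Of these others, 5 exceeded miR-99a, 4 exceeded miR-100 and 6 exceeded miR-99b. The members were measured from their 22-base form. For miR-100 this was not the leading form at 180 days, nor over both libraries together. For miR-99b the 22-base form had 231 reads at 180 days, under the 1000 required of the others. These places therefore compare measures that are not fully alike.

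Bases added after position 22 were common, and miR-100 carried more of them than miR-99a. A base was added in 15.2% of miR-99a reads at 30 days and 14.5% at 180 days, against 26.5% and 24.8% of miR-100 reads and 29.5% and 30.4% of miR-99b reads. For every 100 exact 22-base reads, miR-99a had 22.3 with A added at 30 days and 25.5 at 180 days. miR-100 had 45.4 and 52.0, more than any of the 42 other miRNAs in either library, whose medians were 6.84 and 6.75 and whose highest values were 41.8 and 51.1. The interval of miR-100 at 180 days (49.7 to 54.3) includes that highest value. The 42 others were measured from their leading tag. That tag was not always the most read in each library, as the shorter form of miR-21 had 104 per 100 at 30 days. miR-100 was measured from its 22-base form, with 24498 reads at 30 days and 5746 at 180 days. Its 21-base form had 23369 and 7266, more at 180 days and more over both libraries together. The place of miR-100 above the others therefore compares unlike measures at both ages. With T added, miR-99a had 10.7 and 9.60 per 100, miR-100 had 29.9 and 28.7, and miR-99b had 47.2 and 50.6. The medians for T over the 42 others were 5.30 and 6.19. With A added, miR-99b had 30.4 at 30 days and 46.3 at 180 days. miR-99b was therefore the member with the most added T, and miR-100 the member with the most added A at 30 days. At 180 days the A-added interval of miR-99b (36.5 to 58.5) included the value of miR-100, so their order is not settled there. Whether these bases are in the precursor was not looked at, since no hairpin sequence was used here.

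**Figure D4:**
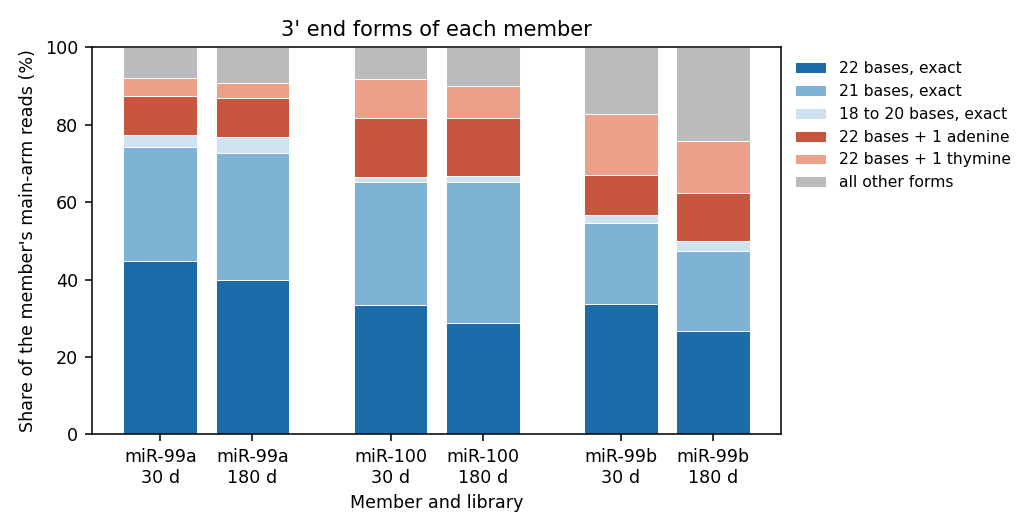
Share of each member's main-arm reads, by own bases (in percent, stacked to 100), that ended at base 22, at base 21 or earlier, or carried added bases, in the 30-day and 180-day libraries. The exact 22-base share was lower at 180 days in all 3 members, for miR-99a 44.8% against 39.9% and for miR-100 33.4% against 28.7%.

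The 5′ end, which sets the seed, was nearly fixed. Reads began at base 1 in 99.2% of miR-100 reads at 30 days and in 99.0% at 180 days. For miR-99b this share was 96.6% and 94.4%, with most of the rest beginning at base 2 (3.25% and 5.33%). The seed ACCCGTA stood at bases 2 to 8 in 98.1% of the family's main-arm reads at 30 days and in 97.1% at 180 days. Over all miRNA-matched reads, whatever their name, 9.74% carried this seed at 30 days and 7.92% at 180 days. Only 188 of these reads at 30 days and 18 at 180 days were listed outside the family.

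The opposite (3′, star) arms were rare for miR-99a and miR-100 and less so for miR-99b. miR-99a* had 379 reads (50.4 RPM) at 30 days and 22 reads (25.8 RPM) at 180 days, and its ratio was 0.513 (0.317 to 0.788). miR-99b* had 301 reads (40.0 RPM) and 24 reads (28.2 RPM), with a ratio of 0.704 (0.444 to 1.07). Both were below 1 under all 4 scalings. miR-100* had 14 reads (1.86 RPM) and 8 reads (9.39 RPM). Its ratio was 5.05 with a wide interval of 1.83 to 12.9; under TMM it was 2.72 with an interval that included 1 (0.989 to 6.95), and per read of the whole library it was 0.604 (0.219 to 1.54). The share of the 3′ arm in all reads of a precursor was 0.0569% and 0.0454% for miR-99a, 0.0191% and 0.0400% for miR-100, and 4.75% and 2.71% for miR-99b. The 3′ arm of miR-99b thus held a far larger share of its precursor's reads than that of either relative, at both ages. The miR-100* reads are of interest for their sequence, given here as the human and the platypus entry in the lists have it, with position 10 in capitals.
human miR-100*: caagcttgtAtctataggtatg
platypus miR-100*: caagcttgtGtctataggtat
All 14 reads at 30 days and all 8 at 180 days had the platypus base at this position (A10G relative to the human entry), and 0 had the human base.

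The cluster partners, a list of let-7 and miR-125 miRNAs assigned to the same precursor clusters, did not all follow the family members. The partners were summed by listed name only. Whether those names misplace reads, as the miR-100 name did, was not examined. Of 11 partner arms, 2 were higher, 1 was lower and 8 were neither, against 31.0% higher and 11.6% lower overall. Their median log2 ratio was −0.20. let-7c, the neighbour of miR-99a, had 93764 RPM at 30 days and 44656 RPM at 180 days and was lower, with a ratio of 0.476 (0.471 to 0.481). let-7a, listed as let-7 and made from several genes, had 103859 and 93458 RPM, a ratio of 0.900. miR-125b, whose main arm was assigned to the clusters of both miR-99a and miR-100, had 4871 and 3356 RPM, a ratio of 0.689. The neighbours of miR-99b had ratios of 0.527 for let-7e and 0.546 for miR-125a, on the other side of 1 from miR-99b (1.26) under the miRNA-matched total and below miR-99b under every scaling. Under TMM and median-of-ratios scaling 0 of the 11 partner arms were higher and 7 were lower, where 17.1% and 15.3% of all miRNAs were higher and 33.3% and 34.6% lower. With the whole-library totals all 11 were lower, where 83.4% of all miRNAs were lower and 5.92% higher.

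By their names, the star arms of miR-125b come from separate genes. miR-125b-1* was assigned to the miR-100 cluster, where the pig gene table has MIR125B-1. miR-125b-2* was assigned to the miR-99a cluster, but that table has no miR-125 gene among those nearest to MIR99A. Its place in the pig miR-99a cluster was therefore not shown here. miR-125b-1* had 118 reads (15.7 RPM) at 30 days and 28 reads (32.9 RPM) at 180 days, and was higher with a ratio of 2.10 (1.34 to 3.19). miR-125b-2* had 646 reads (85.8 RPM) and 57 reads (66.9 RPM), with a ratio of 0.779 (0.584 to 1.02). There were 18.3 reads of miR-125b-1* per 100 of miR-125b-2* at 30 days and 49.1 at 180 days, a 2.69-fold difference (1.64 to 4.40) that no scaling changes. It has the direction of the 3.74-fold difference of miR-100 per miR-99a, from far fewer reads, and this pair was chosen after the values were seen. let-7a* had 70 and 21 reads, a ratio of 2.65 (1.54 to 4.37). It was counted without copy number, as was let-7a, so its reads cannot be tied to the miR-100 cluster. let-7c* had 26 and 4 reads, too few to place its ratio of 1.36 (0.345 to 3.92) on either side of 1.

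**Figure D5:**
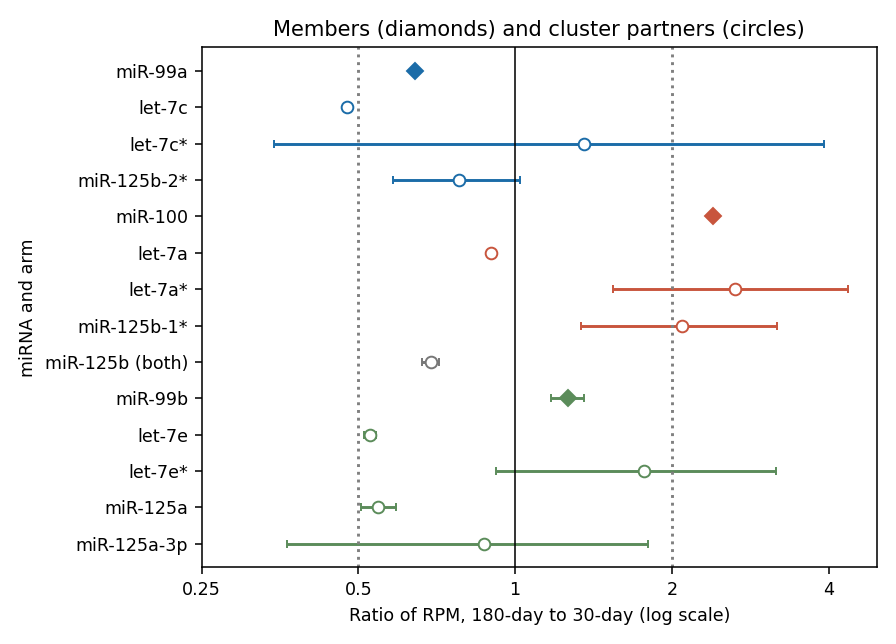
Ratio of the 180-day to the 30-day library in RPM (log axis) for the members by own bases (diamonds) and for the let-7 and miR-125 arms assigned to their clusters (circles), with 95% counting intervals. The circles are by listed name and were not regrouped by own bases. let-7a* was counted without copy number, so its reads cannot be tied to the miR-100 cluster. miR-100 (2.40), let-7a* (2.65) and miR-125b-1* (2.10) lie above 2 and let-7c (0.476) below 0.5 under this scaling; under TMM and median-of-ratios scaling no partner arm is higher.

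Outside the family, the miRNAs with ratios closest to the members by listed name were sought among 141 with 1000 or more reads. With 2 libraries this likeness is that of 1 ratio. For miR-99a they were miR-23b* (0.635), miR-202 listed without an arm (0.667) and miR-339 (0.668). For miR-100 they were miR-202-5p (1.77), miR-30a-5p (1.82) and miR-1261 (1.76), though by own bases miR-100 stood further up. For miR-99b they were miR-23b (1.26), let-7f (1.27) and miR-23a (1.29).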

How the data were processed

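Per the labels' protocols, RNA of 18 to 30 nucleotides was ligated to adapters, amplified and sequenced. The authors deposited for each library the distinct tags matched to known miRNAs, each with its raw read count, 1 entry name from any species, and its matching, mismatched and unmatched bases. The aligner, genome build and miRBase release were not given in the sources used here. The deposited counts were summed by name and arm and divided by each library's listed total (RPM). Ratios have exact conditional (Clopper-Pearson) 95% intervals, shares have Clopper-Pearson intervals, and the change of one member per another has an interval on the log odds. Tags of 18 or more bases were given to the member with the most matching bases at offsets of up to 3. Alternative scalings came from edgeR 4.0.16 (TMM) and DESeq2 1.42.0 (size factors), in R 4.3.3. Neither tool was used for a test. Intervals and calls used Python 3.11.15 and SciPy 1.17.1 and were tested on simulated data. Named were all members, a list of cluster partners, and for each member the 3 miRNAs with the nearest ratio. The members and lists were chosen with earlier results of these data known. Gene neighbours are from RefSeq (Sscrofa11.1).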

Additional observations from a re-analysis of the deposited data

How the results depend on the processing

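The ratio of miR-99a (0.650) was 0.642 by own bases, 0.643 with ties shared, 0.673 from perfectly matching tags only, and 0.351, 0.334 and 0.0778 under TMM, median-of-ratios and whole-library scaling. That of miR-100 by listed name (1.79) was 2.40, 2.40 and 2.51 under the first 3 of these, and reversed to 0.965, 0.918 and 0.214 under the scalings. That of miR-99b (1.26) was 1.07 from perfect tags, with an interval that includes 1 (0.932 to 1.23), and reversed to 0.679, 0.646 and 0.151. The family sum (0.822) was 0.858 from perfect tags, and 0.443, 0.422 and 0.0983 under the scalings. Leaving out tags of 1 read, or summing both arms, moved these ratios by less than their intervals. Of all miRNAs, 136 were higher and 51 lower. This became 75 and 146 under TMM, 67 and 152 under median-of-ratios, and 26 and 366 under whole-library scaling. With 100 or more reads required 75 were higher, and with 1 or more 246. The change of miR-100 per miR-99a (3.74) was 2.75 by listed name; this quantity and its alternatives were chosen after seeing the data.

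No paired analysis was possible because each age is 1 pooled library, and leaving out a replicate was not run for the same reason. Added bases were not compared with the hairpin, which was not used here. The whole-library values assume that tag numbers are ranks by read count and are ratios of 2 lower limits. The causes of the differences were not tested. The 180-day list is the shallower, and it limits miR-100* (8 reads), miR-99a* (22 reads) and miR-99b* (24 reads) most.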

Other observations

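The share of family reads with added bases shows how the mix of members enters a summed value. Over the whole family it was 16.4% at 30 days and 17.7% at 180 days. Within miR-99a it was 15.2% and 14.5%, and within miR-100 26.5% and 24.8%. The summed share was thus larger at 180 days while the shares of the 2 abundant members were smaller. miR-100, with the larger share of added bases, was 9.86% of the family at 30 days and 28.9% at 180 days.

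The T-added form of miR-99a was 4.81% of miR-99a reads at 30 days and 3.83% at 180 days. Its ratio was 0.511 (0.487 to 0.536), and that of the A-added form 0.654 (0.635 to 0.673). Reads of miR-99a that began 1 base upstream of its leading start were 0.481% and 0.614%. Among the miR-100* tags at 30 days, the leading one, with 5 of 14 reads, carried an A before the C at which both deposited entries begin.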
